A study of Mus musculus with 20 samples.

Results

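The 30 genes described here act in the synthesis, uptake and efflux of cholesterol, and were followed in sorted microglia and astrocytes after sham or fluid percussion injury. They were chosen by name for their known roles, with earlier results of these data known. All 30 were found among the 39017 gene identifiers counted: 18 encode enzymes of cholesterol synthesis, 5 encode SREBP transcription factors or proteins that control them, 2 act in transport within the cell and esterification, and 5 encode liver X receptors (LXR) or act in the control of uptake and in efflux. Lateral fluid percussion injury (FPI), in which a brief pressure pulse of fluid strikes the exposed dura, was compared with sham injury. Sham mice had the same surgery and were connected to the device without a pulse. All mice were male, 3 to 4 months old, and C57BL/6J by the paper (C57BL/6 in the sample labels). On day 7 after sham or FPI the ipsilateral forebrain was dissociated, microglia (CD11b+, CD45 intermediate) and astrocytes (ACSA-2+) were sorted by flow cytometry, and total RNA was sequenced with a stranded kit for small inputs. The 4 groups (sham microglia, FPI microglia, sham astrocytes and FPI astrocytes) held 5 libraries each, every library from a single animal without pooling. The p-values measured the spread between such libraries, although 2 of the FPI astrocyte libraries carried the same animal number. The comparisons address which cholesterol genes each cell type used without injury, and how FPI changed them in each cell type.

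Cells build cholesterol from acetyl-CoA through mevalonate, isoprenoids, squalene and lanosterol, and the transcription factors SREBP1 and SREBP2 switch on these enzymes when SCAP carries them out of the endoplasmic reticulum, which INSIG proteins prevent when sterols are plentiful. Oxysterols activate the LXR receptors, whose targets include the efflux transporters ABCA1 and ABCG1 and the ubiquitin ligase MYLIP. The adult brain makes its own cholesterol, astrocytes pass it to other cells on lipoprotein particles, oligodendrocytes use it for myelin, and microglia take up lipid-rich debris after injury.

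The count per library summed to 5623349 to 13110857 in sham microglia, 6890710 to 8396868 in FPI microglia, 7998479 to 10917112 in sham astrocytes and 6470553 to 10194999 in FPI astrocytes. Levels are given as CPM, in which each count is scaled to the summed count of its library after normalization across the 20 libraries. Microglia markers (8 genes, such as Cx3cr1, Tmem119, P2ry12 and Itgam) summed to 20018 to 24812 CPM in sham microglia and 15924 to 25220.2 CPM in FPI microglia, against 31.6 to 60.8 CPM in sham astrocytes and 42.5 to 141 CPM in FPI astrocytes. Astrocyte markers (8 genes, such as Aldh1l1, Aqp4, Gfap and Slc1a2) summed to 10462 to 32440.3 CPM in sham astrocytes and 11977 to 32539.6 CPM in FPI astrocytes, against 244 to 366 CPM in sham microglia and 293 to 617 CPM in FPI microglia. Every library thus held the markers of its labelled cell type at the higher level, and all 8 microglia markers passed the test as higher, and all 8 astrocyte markers as lower, in sham microglia than in sham astrocytes. FPI astrocyte libraries 2 and 5 carried the same animal number in their names. Library 5 also carried the letter of microglia libraries 1 to 3, although its astrocyte markers summed to 16061 CPM and its microglia markers to 141 CPM. Microglia libraries 4 and 5 of each group carried an A in their names, the letter of the other astrocyte libraries. By their names, 3 animals gave both a microglia and an astrocyte library, and these libraries were taken as independent. FPI astrocyte libraries 2 and 5 were also taken as independent, except in the alternative that summed them.

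**Figure D1:**
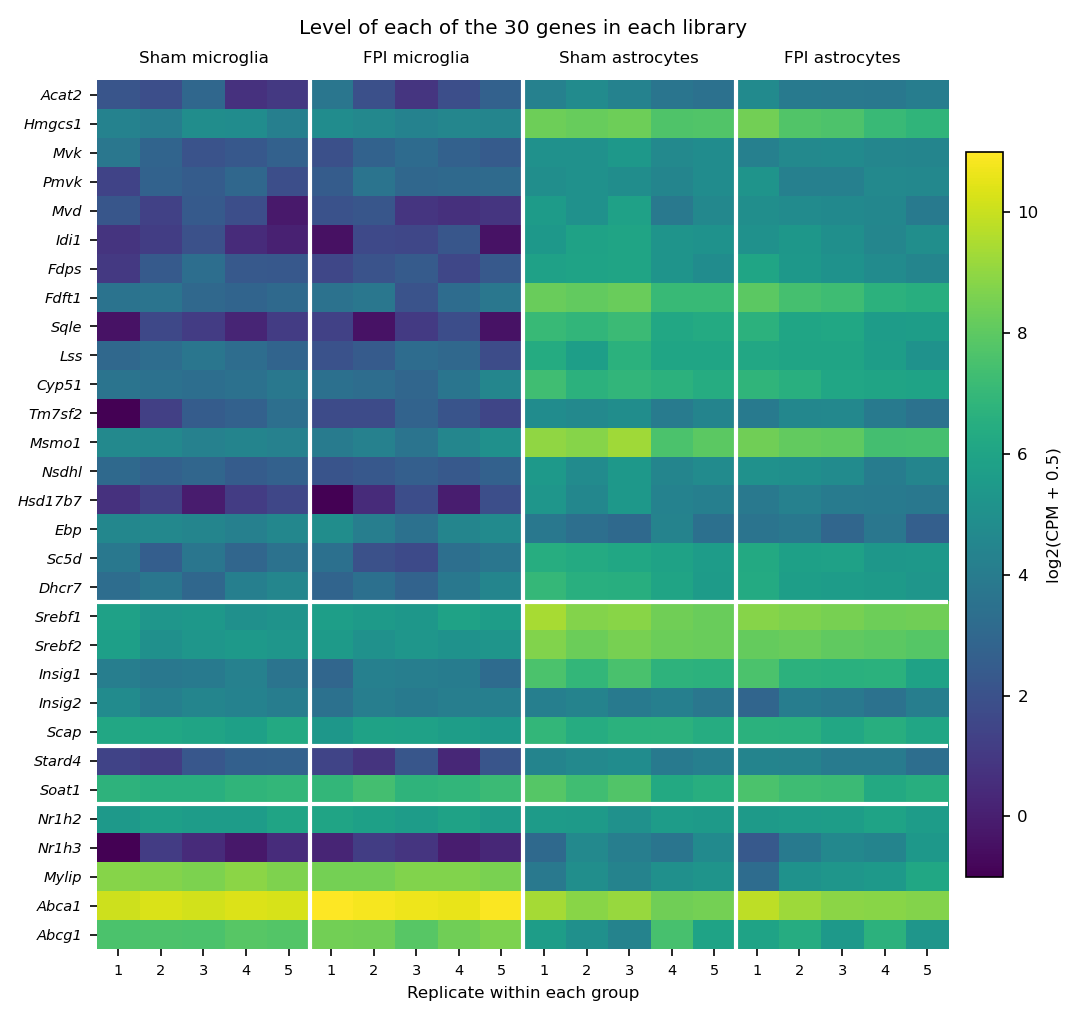
Colour gives log2(CPM + 0.5) of each of the 30 genes (lines, in the order synthesis, SREBP control, transport and esterification, LXR and efflux, set apart by white lines) in each of the 20 libraries (columns, 5 per group). Sqle lies between 0.250 and 2.49 CPM in sham microglia and between 73.1 and 145 CPM in sham astrocytes, and Abca1 between 1548 and 2022 CPM in FPI microglia.

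Between the sham cell types, 17 of the 18 synthesis genes were lower in microglia than in astrocytes and Ebp alone was higher, at an adjusted p below 0.1 and a log2 fold change beyond 0.6 (edgeR quasi-likelihood test over 15077 genes, Benjamini-Hochberg adjustment). Over all genes tested, 35.6% passed as lower and 25.3% as higher in microglia. The median log2 fold change of the 18 synthesis genes, microglia over astrocytes, was -3.14, against -0.15 for all genes. In each of the 17, every sham microglia library lay below every sham astrocyte library, which 29.1% of all genes showed. The 18 genes together summed to 156, 151, 168, 153 and 157 CPM in sham microglia libraries 1 to 5 and to 2081, 1793, 2169.7, 1116 and 1154 CPM in sham astrocyte libraries 1 to 5. The sum was thus nearly even among the microglia libraries, at 157 ± 6.54 CPM (SD, n = 5), and spread wider among the astrocyte libraries, at 1663 ± 502 CPM (SD, n = 5), where libraries 4 and 5 were the lowest. In these bulk samples, fewer cells that use a gene and less of its RNA per cell cannot be told apart.

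Sqle, squalene epoxidase, which oxidizes squalene in a rate-limiting step, had the largest difference of the 30 genes. It stood at 0.250, 2.49, 1.68, 0.681 and 1.70 CPM in sham microglia, from 2, 34, 15, 6 and 9 reads, and at 135, 116, 145, 73.1 and 80.2 CPM in sham astrocytes. No microglia library came near the lowest astrocyte library, and the log2 fold change was -6.27 (adjusted p = 9.28e-10, SE 0.51), with a microglia mean at 1.24% of the astrocyte mean. Idi1, the isomerase that makes dimethylallyl diphosphate, stood at 1.25, 1.76, 3.47, 0.908 and 0.568 CPM in sham microglia and 41.7, 60.2, 62.5, 36.3 and 34.5 CPM in sham astrocytes. All microglia libraries were again far below all astrocyte libraries (log2 fold change -4.83, adjusted p = 7.49e-08, SE 0.53), but from no more than 31 reads in any microglia library. Fdft1, squalene synthase, which commits farnesyl units to sterols, stood at 11.4, 11.6, 7.84, 6.70 and 8.14 CPM in sham microglia and 304, 277, 298, 133 and 132 CPM in sham astrocytes. Its libraries fell into groups that did not overlap, with astrocyte libraries 4 and 5 at less than the level of the other astrocyte libraries (log2 fold change -4.64, adjusted p = 7.74e-10, SE 0.37). The exons of Fdft1 share 774 bases, 18.3% of its exon length, with Ctsb on the opposite strand, and the counting's use of strand was not given in the sources used here, so reads from the overlap cannot be assigned with certainty. Msmo1, the methylsterol monooxygenase that removes methyl groups from lanosterol's products, stood at 24.5, 23.6, 18.5, 20.7 and 18.6 CPM in sham microglia and 513, 445, 627, 192 and 252 CPM in sham astrocytes. Its microglia libraries were close to each other while the astrocyte libraries spanned a wide range, highest in library 3 and lowest in library 4 (log2 fold change -4.26, adjusted p = 4.36e-10, SE 0.33).

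The other synthesis genes that were lower in microglia act both before and after squalene epoxidation. Acat2 makes acetoacetyl-CoA and Hmgcs1 makes HMG-CoA from it, and their log2 fold changes were -2.33 and -3.62. The kinases Mvk and Pmvk, which phosphorylate mevalonate in turn, had log2 fold changes of -2.23 and -2.51, and the decarboxylase Mvd, the next enzyme, had -3.56. Fdps, which joins isoprene units into farnesyl diphosphate, had a log2 fold change of -3.29. Of the enzymes after squalene epoxidation, Lss, which closes the ring to lanosterol, had a log2 fold change of -2.98, and Cyp51, the lanosterol demethylase, had -3.35. The sterol reductase Tm7sf2 had -2.38, the dehydrogenase Nsdhl -2.30, the ketosteroid reductase Hsd17b7 -4.21, the desaturase Sc5d -2.81 and the reductase Dhcr7 -2.63. Adjusted p-values of these 13 genes reached 0.00101 at most, for Tm7sf2, which shares 12.1% of its exon length with Vps51 on the same strand. Acat2, Idi1 and Fdps have near-identical copies or pseudogenes (Acat3, Idi2 and Fdps pseudogenes), so their counts are uncertain where reads fit both.

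Ebp, the sterol isomerase that shifts a double bond within the sterol ring, was the exception. It stood at 22.5, 23.6, 21.7, 18.4 and 22.9 CPM in sham microglia and 13.5, 9.75, 7.94, 19.8 and 10.4 CPM in sham astrocytes. The groups overlapped through sham astrocyte library 4, which lay above the lowest microglia library, and the log2 fold change was 0.83 (adjusted p = 0.0168, SE 0.29), which did not pass at a minimum of 1. Per kilobase of exons, Ebp had the highest level of the 18 enzymes in sham microglia, at 9.45 CPM per kb, followed by Hmgcs1 at 4.80 and Msmo1 at 3.44 CPM per kb, and Sqle at 0.245 and Hsd17b7 at 0.299 CPM per kb were the lowest, within 1 SD of each other. In sham astrocytes the order per kilobase was led by Msmo1 at 66.1, Hmgcs1 at 59.3 and Fdft1 at 54.2 CPM per kb, levels within 1 SD of each other, and Tm7sf2 at 5.30, Ebp at 5.32 and Hsd17b7 at 5.53 CPM per kb were the lowest, also within 1 SD of each other.

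**Figure D2:**
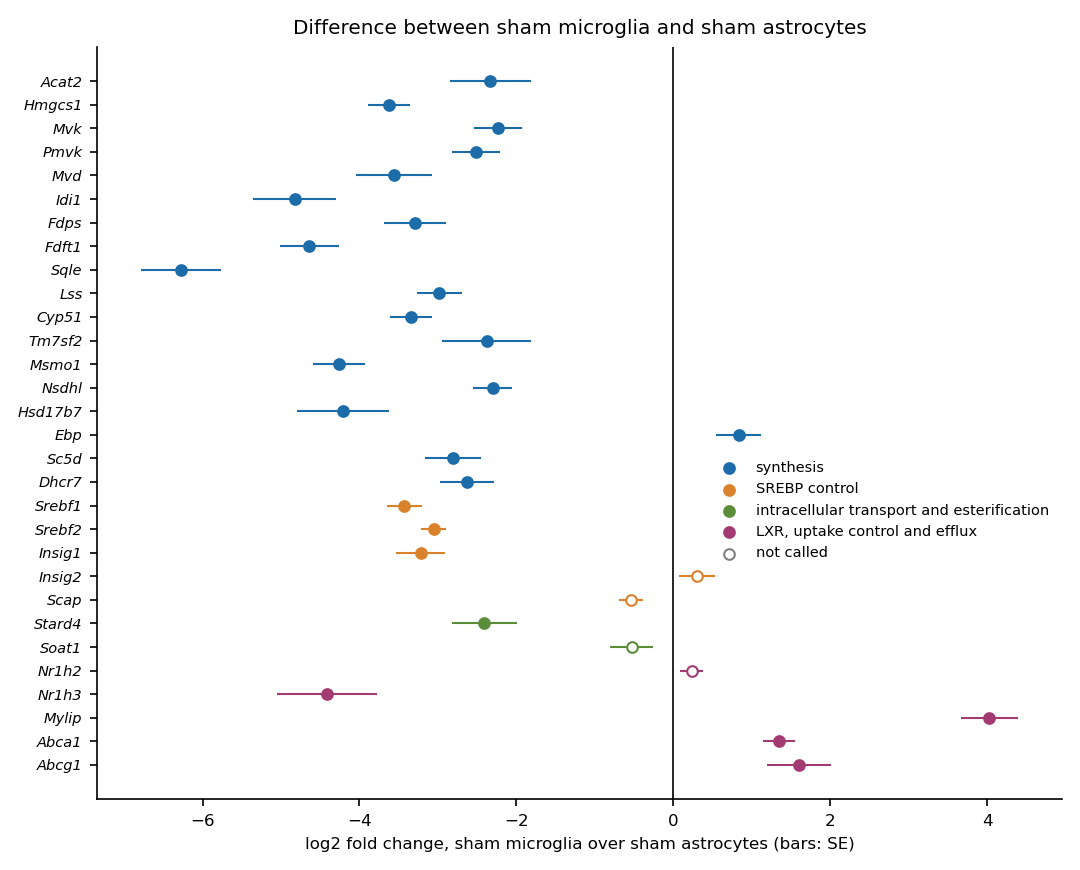
Points give the log2 fold change of each gene, sham microglia over sham astrocytes (5 libraries each), bars its standard error, colours the role, and open points genes that did not pass the test. The synthesis genes run from -6.27 (Sqle) to -2.23 (Mvk) apart from Ebp at 0.83, and Mylip is the highest gene at 4.03.

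Promoters are shown for 6 of these genes because genes of 1 pathway moved together between the cell types: Hmgcs1, Msmo1 and Hsd17b7, which were lower in microglia, Ebp, which was higher, and 2 LXR targets, Mylip and Abca1, which were higher. RefSeq promoters of build GRCm38.p6, 300 bases from 250 before to 50 after each transcript start, were present for 25 of the 30 genes, in 34 windows, and not for Fdps, Fdft1, Sqle, Stard4 and Abcg1. They were searched on both strands for the sterol response element of the SREBP factors, spelled TCACNCCAC, and for the NF-Y box, spelled CCAAT, which often lies beside it. The sterol response element was found in 1 gene, Hmgcs1, and in 1.24% of all 32841 promoters. The NF-Y box was found in 21 of the 34 windows (61.8%), against 37.4% of all promoters. By role, the NF-Y box was in 14 of 18 windows of synthesis genes, 5 of 10 of SREBP control genes, 1 of 1 of a transport gene and 1 of 5 of LXR and efflux genes. A match is a description of these letters only, and no match says nothing about the factor. Capitals mark both motifs on either strand (ATTGG is CCAAT on the reverse strand), and each sequence runs 5′ to 3′ on the strand of its gene. The windows lie at chr13:119690101-119690400, forward strand (Hmgcs1), chr8:64733529-64733828, reverse strand (Msmo1), chr1:169969156-169969455, reverse strand (Hsd17b7), chrX:8193463-8193762, reverse strand (Ebp), chr13:45389492-45389791, forward strand (Mylip) and chr4:53159846-53160145, reverse strand (Abca1), each around a RefSeq transcript start. The start used for Msmo1 lies 214 bases inside the gene as annotated by GENCODE, so most of its window is within the gene. Hmgcs1 held 4 NF-Y boxes and the sterol response element, Msmo1, Hsd17b7 and Mylip 3 NF-Y boxes each, Ebp 2, and Abca1 neither motif.
Hmgcs1: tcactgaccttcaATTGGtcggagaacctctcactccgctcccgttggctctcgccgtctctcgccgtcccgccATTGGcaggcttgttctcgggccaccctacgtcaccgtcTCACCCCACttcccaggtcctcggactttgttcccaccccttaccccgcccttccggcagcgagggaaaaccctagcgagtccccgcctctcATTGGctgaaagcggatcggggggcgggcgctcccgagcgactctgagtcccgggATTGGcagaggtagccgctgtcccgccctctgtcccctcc
Msmo1: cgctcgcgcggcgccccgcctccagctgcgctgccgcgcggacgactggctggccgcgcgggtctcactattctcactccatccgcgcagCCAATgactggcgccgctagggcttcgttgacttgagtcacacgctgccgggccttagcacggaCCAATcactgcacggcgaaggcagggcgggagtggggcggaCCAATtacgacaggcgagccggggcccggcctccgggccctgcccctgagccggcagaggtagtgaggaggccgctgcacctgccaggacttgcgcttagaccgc
Hsd17b7: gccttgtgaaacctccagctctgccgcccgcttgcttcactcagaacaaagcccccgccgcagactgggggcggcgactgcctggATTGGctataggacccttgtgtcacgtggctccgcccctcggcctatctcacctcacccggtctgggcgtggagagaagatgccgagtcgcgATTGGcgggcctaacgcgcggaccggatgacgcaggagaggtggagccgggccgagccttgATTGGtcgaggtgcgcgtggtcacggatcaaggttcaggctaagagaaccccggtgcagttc
Ebp: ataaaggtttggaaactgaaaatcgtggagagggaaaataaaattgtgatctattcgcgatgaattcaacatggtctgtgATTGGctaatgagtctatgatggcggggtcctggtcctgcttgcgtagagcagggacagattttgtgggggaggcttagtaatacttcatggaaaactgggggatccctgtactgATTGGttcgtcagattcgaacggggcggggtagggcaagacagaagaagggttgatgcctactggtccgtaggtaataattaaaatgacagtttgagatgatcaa
Mylip: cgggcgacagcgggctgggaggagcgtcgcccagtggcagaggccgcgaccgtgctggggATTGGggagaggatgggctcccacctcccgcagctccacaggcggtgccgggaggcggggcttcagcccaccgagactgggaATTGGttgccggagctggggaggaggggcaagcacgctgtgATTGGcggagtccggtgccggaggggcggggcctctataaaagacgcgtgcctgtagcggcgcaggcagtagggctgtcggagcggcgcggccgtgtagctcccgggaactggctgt
Abca1: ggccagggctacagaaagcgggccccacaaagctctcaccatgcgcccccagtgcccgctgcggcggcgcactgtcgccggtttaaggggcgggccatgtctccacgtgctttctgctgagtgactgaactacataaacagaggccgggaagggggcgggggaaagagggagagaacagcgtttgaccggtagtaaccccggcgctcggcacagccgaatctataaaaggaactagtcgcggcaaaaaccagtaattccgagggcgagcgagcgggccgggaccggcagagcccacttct

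Of the 5 SREBP control genes, 3 were lower in sham microglia and 2 did not pass the test. Over all genes tested, 35.6% passed as lower. Srebf1, which encodes SREBP1, had a log2 fold change of -3.43 (adjusted p = 2.56e-11, SE 0.22), with 31.8 to 57.5 CPM in sham microglia and 302 to 674 CPM in sham astrocytes. Srebf2, which encodes SREBP2, the main activator of the synthesis genes, had a log2 fold change of -3.05, and Insig1, which retains SCAP and is itself an SREBP target, had -3.22. Insig2, a second retention protein, did not pass, with a log2 fold change of 0.30 (adjusted p = 0.27, SE 0.23). Scap, the escort of the SREBP proteins, stood at 72.2, 69.2, 64.1, 54.8 and 76.3 CPM in sham microglia and 120.0, 84.6, 98.6, 102 and 84.5 CPM in sham astrocytes. Every microglia library was below every astrocyte library, as in 29.1% of all genes tested. The log2 fold change of Scap, -0.54 (adjusted p = 0.00421, SE 0.15), did not reach the minimum of 0.6. It passed in several alternatives: with DESeq2 (-0.62), with RLE factors (-0.62), with at least 10 counts in every library (-0.68), averaged over sham and FPI (-0.66) and without sham microglia library 5 (-0.61). Per kilobase, Srebf1 was the highest of the 5 in sham astrocytes at 78.2 CPM per kb and Scap in sham microglia at 9.05 CPM per kb. Scap shares 13.2% of its exon length with a transcript on the opposite strand that had 20 reads over all libraries.

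Stard4, which carries sterol between membranes, was lower in sham microglia, with a log2 fold change of -2.41 (adjusted p = 3.01e-05, SE 0.41). Soat1, which esterifies cholesterol for storage in droplets, stood at 107, 92.5, 94.4, 115 and 122 CPM in sham microglia and 225, 159, 214, 78.2 and 91.2 CPM in sham astrocytes. The astrocyte libraries lay on both sides of the microglia libraries, with 1 to 3 above and 4 and 5 below all of them, and the log2 fold change of -0.53 (adjusted p = 0.0935, SE 0.27) did not reach 0.6. It passed with DESeq2 (-0.62, adjusted p = 0.0665), with RLE factors (-0.62), with at least 10 counts in every library (-0.68), without the astrocyte libraries of the 3 animals with both cell types (-0.88, adjusted p = 0.00459) and without sham astrocyte library 4 (-0.67, adjusted p = 0.0287), sham astrocyte library 5 (-0.63) or sham microglia library 5 (-0.62). Averaged over sham and FPI it was -0.26 (adjusted p = 0.22).

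The LXR and efflux genes went the other way in 3 of 5. Of all 15077 genes tested, 25.3% passed as higher, and 3474 had every sham microglia library above every sham astrocyte library. Mylip, an LXR target whose product marks lipoprotein receptors for degradation, stood at 446, 437, 393, 484 and 401 CPM in sham microglia and 13.8, 29.7, 20.1, 32.1 and 36.8 CPM in sham astrocytes. The lowest microglia library was far above the highest astrocyte library, and the log2 fold change of 4.03 (adjusted p = 4.68e-09, SE 0.37) was the highest of the 30 genes. Abca1, the transporter that loads cholesterol and phospholipid onto apolipoproteins, stood at 1066, 1278, 1138, 1301 and 1217 CPM in sham microglia and 661, 459, 560.1, 329 and 353 CPM in sham astrocytes. It was high in all libraries of both cell types, and every microglia library was above every astrocyte library (log2 fold change 1.34, adjusted p = 8.8e-06, SE 0.21). Abcg1, the transporter that passes cholesterol to lipoprotein particles, stood at 189, 199.8, 191, 234 and 222 CPM in sham microglia and 50.5, 31.6, 19.9, 177 and 61.3 CPM in sham astrocytes. The groups did not overlap, although sham astrocyte library 4 came close to the microglia libraries while the other astrocyte libraries were far lower. The log2 fold change was 1.61 (adjusted p = 0.00176, SE 0.41), and 2.38 without that library. Sham astrocyte library 4 also had the highest sum of the oligodendrocyte markers, given with the astrocyte results, and their part in the level of Abcg1 was not tested.

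Of the LXR receptors themselves, Nr1h2 (LXR beta) did not differ past the threshold and Nr1h3 (LXR alpha) was lower in microglia. Nr1h2 stood at 43.9 to 64.0 CPM in sham microglia and 33.2 to 49.2 CPM in sham astrocytes, with a log2 fold change of 0.23 (adjusted p = 0.171, SE 0.15). Nr1h3 stood at 0, 1.68, 0.896, 0.341 and 0.947 CPM in sham microglia, from 0, 23, 8, 3 and 5 reads, and at 7.97, 24.4, 17.0, 12.2 and 25.9 CPM in sham astrocytes. It was at 0 in microglia library 1 and low in all others, below every astrocyte library (log2 fold change -4.41, adjusted p = 3.37e-06, SE 0.63). Per kilobase, the order in sham microglia was Mylip at 134 and Abca1 at 116 CPM per kb, then Abcg1 at 28.4, Nr1h2 at 15.4 and Nr1h3 at 0.308 CPM per kb. In sham astrocytes it was Abca1 at 45.6 and Nr1h2 at 13.1 CPM per kb, then Abcg1 at 9.33, Mylip at 8.19 and Nr1h3 at 6.96 CPM per kb, the last 3 within their spread of each other.

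Markers of other cell types were measured beside these differences. In sham microglia all 8 astrocyte markers had reads in every library, and their sum was 349, 268, 335, 366 and 244 CPM, 1.41% of the mean sum in sham astrocytes, led by Slc1a3 at 154 CPM. The summed synthesis genes of sham microglia were at 9.43% of those in sham astrocytes, and the means of Sqle, Idi1, Fdft1 and Nr1h3 were at 1.24%, 3.38%, 3.98% and 4.42%. The part of astrocyte RNA in the lowest of these levels was not tested. Oligodendrocyte markers averaged 173 ± 22.1 CPM in sham microglia and 8005 ± 6546 CPM in sham astrocytes (SD, n = 5), and all 8 passed as lower in microglia. Markers of oligodendrocyte precursors averaged 6.62 ± 1.30 CPM and 497 ± 206 CPM (SD, n = 5), and all 6 tested passed as lower. Oligodendrocytes also make cholesterol, and the part of these cells in the astrocyte levels of the synthesis genes was not tested. Monocyte or macrophage markers (7 genes) summed to 379.7, 255, 362, 23.2 and 18.7 CPM in sham microglia and 227, 171, 125, 23.3 and 57.4 CPM in FPI microglia, high in libraries 1 to 3 of either group and low in 4 and 5, led by Mrc1 and with Ly6c2 at 0. Libraries 4 and 5 of the microglia also have another style of animal name than 1 to 3. Neuron markers (7 genes) summed to 3.02 to 8.62 CPM in sham microglia and 10.8 to 41.4 CPM in sham astrocytes, and endothelium markers (6 genes) to 57.1 to 90.2 and 269.7 to 708 CPM.

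A wider list of 34 other genes of cholesterol handling, such as sterol hydroxylases, lysosomal and lipoprotein genes, held 11 that were higher and 15 that were lower in sham microglia. The shares over all genes tested were 25.3% higher and 35.6% lower. The highest were Ch25h, cholesterol 25-hydroxylase, at a log2 fold change of 2.78 (SE 1.18) from 0 to 1.98 CPM in sham microglia, Stard3, a late endosome sterol carrier, at 4.28 times the astrocyte level, and Gramd1a, a sterol transfer protein of membrane contacts, at 1.92 (SE 0.19). The lowest were Cyp7b1, an oxysterol hydroxylase, at -8.04 (SE 0.65), Lcat, which esterifies cholesterol on lipoproteins, at -7.87 (SE 0.66), and Vldlr, a lipoprotein receptor, at -7.37 (SE 0.71), each at or near 0 in several microglia libraries. Adjusted p-values of these 6 genes ran from 8.79e-10 to 0.0465.

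In microglia after FPI, the efflux transporter Abcg1 was higher, Abca1 stood above sham in every library just short of the fold threshold, and the synthesis genes showed no common direction. Of the 30 genes, 29 had enough reads to be tested in the 10 microglia libraries (Nr1h3, at 0.341 to 1.75 CPM in the libraries where it was above 0, had not), and 1, Abcg1, passed the test, against 2.35% of all 12143 genes tested (285 genes, 259 higher and 26 lower). At an unadjusted p below 0.05 stood 4 of the 29, against 11.3% of all genes: Abca1, Abcg1 and Soat1 above 0 and Scap below 0.

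Abcg1 stood at 189, 199.8, 191, 234 and 222 CPM in sham microglia libraries 1 to 5 and at 341, 331, 231, 337 and 395 CPM in FPI microglia libraries 1 to 5. Of the FPI libraries, 4 were above every sham library, and FPI library 3 lay just under sham library 4. The log2 fold change was 0.68 (adjusted p = 0.0111, SE 0.14), with a 95% interval of 0.40 to 0.95. Without FPI microglia library 5 it was 0.58 (adjusted p = 0.0277), just under the minimum of 0.6, and no member passed. When all 20 libraries shared 1 estimate of the spread it was 0.66 with an SE of 0.40 (adjusted p = 0.636) and did not pass, nor did it at a minimum log2 fold change of 1.

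Abca1 stood at 1066, 1278, 1138, 1301 and 1217 CPM in sham microglia and at 2022, 1803, 1645, 1548 and 1915 CPM in FPI microglia. Every FPI library was above every sham library, as in 2.17% of all genes tested, with FPI library 1 the highest. Its log2 fold change of 0.59 (adjusted p = 0.00872, SE 0.12) met the adjusted p but lay just under the minimum of 0.6, so it did not pass. It passed at 0.60 without sham library 2 or 5, 0.62 without sham library 4, 0.63 without FPI library 3, 0.64 without FPI library 4, 0.61 with at least 10 counts in every library and 0.64 within replicates 1 to 3 alone. It lost the adjusted p as well with all 20 libraries fitted together (0.57, SE 0.20, adjusted p = 0.264) and within replicates 4 and 5 alone (0.51, adjusted p = 0.261). The ratio of mean levels, FPI over sham on the log2 scale, was 0.65 for Abca1 and 0.64 for Abcg1 within replicates 1 to 3, and 0.46 and 0.68 within replicates 4 and 5, which have the other style of animal name.

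The other LXR genes differed less. Mylip stood at 446, 437, 393, 484 and 401 CPM in sham microglia and 360.3, 359.8, 420.4, 422 and 384 CPM in FPI microglia, overlapping, with a log2 fold change of -0.14 (adjusted p = 0.747, SE 0.11). Nr1h2 had a log2 fold change of 0.09 (adjusted p = 0.903, SE 0.15). Soat1, the esterifying enzyme, stood at 107, 92.5, 94.4, 115 and 122 CPM in sham microglia and 121, 167, 109.9, 117 and 144 CPM in FPI microglia. FPI libraries 2 and 5 were above every sham library and the others lay among the sham libraries (log2 fold change 0.33, adjusted p = 0.345, SE 0.14, unadjusted p = 0.0291). Stard4 had a log2 fold change of -0.68 (SE 0.59) from 0.770 to 4.10 CPM in FPI microglia.

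**Figure D3:**
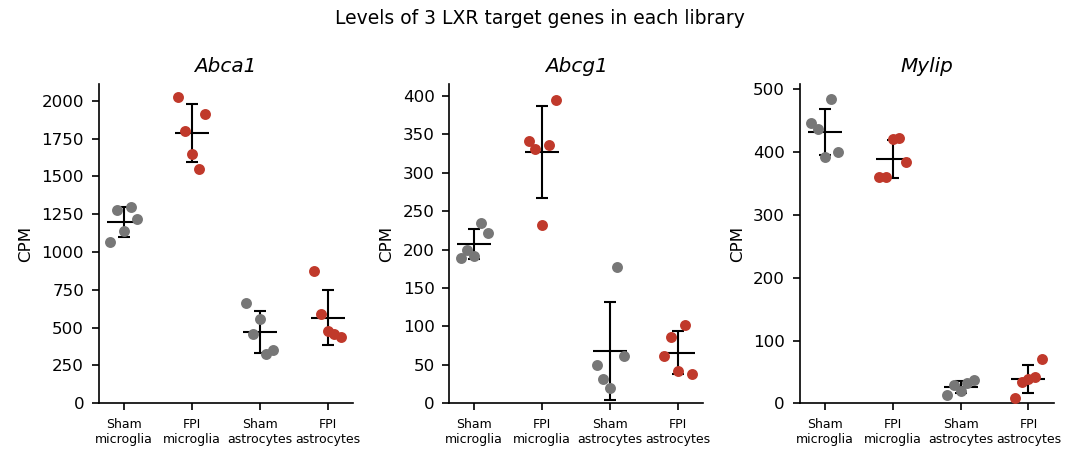
Points give CPM of Abca1, Abcg1 and Mylip in each of the 5 libraries of each group (grey sham, red FPI), with the mean as a line and bars of 1 SD. FPI microglia lie at 1548 to 2022 CPM for Abca1 above sham microglia at 1066 to 1301 CPM, while for Mylip the groups overlap.

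Among the 5 SREBP control genes none passed the test in microglia (edgeR), 1 was at an unadjusted p below 0.05, and with DESeq2 the only member that passed was again Abcg1. Scap stood at 72.2, 69.2, 64.1, 54.8 and 76.3 CPM in sham microglia and 40.4, 59.7, 57.2, 50.5 and 43.4 CPM in FPI microglia. FPI libraries 1, 4 and 5 were below every sham library while 2 and 3 were within the sham range (log2 fold change -0.41, adjusted p = 0.202, SE 0.14, unadjusted p = 0.0101). The log2 fold changes of the others were Srebf1 (0.29), Srebf2 (-0.11), Insig1 (-0.18) and Insig2 (-0.39).

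None of the 18 synthesis genes passed in FPI microglia and none was at an unadjusted p below 0.05 (edgeR; with DESeq2, none passed and 1 was below 0.05). Above 0 stood 8 and below 0 stood 10, with a median log2 fold change of -0.05, against -0.01 for all genes. Pmvk, phosphomevalonate kinase, had the smallest p of them and stood at 2.12, 6.30, 5.04, 7.49 and 3.22 CPM in sham microglia and 5.02, 11.6, 7.47, 8.16 and 8.33 CPM in FPI microglia. FPI libraries 2, 4 and 5 were above every sham library, FPI library 3 was just under the highest sham library, and FPI library 1 was in the middle of the sham range (log2 fold change 0.76, adjusted p = 0.486, SE 0.38, unadjusted p = 0.0636). The other values above 0 were Acat2 (0.64), Idi1 (0.25), Fdft1 (0.14), Cyp51 (0.14), Sqle (0.07), Hmgcs1 (0.07) and Hsd17b7 (0.01). Those below 0 were Lss (-0.70), Fdps (-0.45), Nsdhl (-0.39), Mvd (-0.33), Sc5d (-0.33), Tm7sf2 (-0.31), Mvk (-0.21), Dhcr7 (-0.21), Msmo1 (-0.07) and Ebp (-0.04). Standard errors ranged from 0.21 for Hmgcs1 to 0.85 for Hsd17b7, which had 0 to 25 reads per FPI library, the latter larger than the log2 fold change of Abcg1. The summed level of the 18 was 149.9, 140.2, 114, 155 and 188 CPM in FPI microglia, which overlapped that of sham microglia. Within replicates 1 to 3 the median log2 fold change was -0.28 and within replicates 4 and 5 it was 0.20, and no synthesis gene passed in either.

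The wider list of 34 genes had 27 tested in microglia, of which 3 passed, all higher, against 2.35% of all 12143 genes tested. The list was chosen with earlier results of these data known, so the 2 shares are a description and not a test of the list. Apoe, the main apolipoprotein of the brain, stood at 1841, 1295, 2162, 499.5 and 468 CPM in sham microglia and 14016, 11734, 5143, 2224 and 4733 CPM in FPI microglia, with a log2 fold change of 2.60 (adjusted p = 0.00278, SE 0.45). Nceh1, which hydrolyses cholesterol esters, stood at 17.5, 11.2, 10.5, 9.65 and 15.3 CPM in sham microglia and 49.0, 32.4, 25.1, 30.5 and 35.5 CPM in FPI microglia, with a log2 fold change of 1.45 (adjusted p = 0.00138, SE 0.24). Gramd1b, a sterol transfer protein of membrane contacts, stood at 36.0, 29.6, 27.0, 39.4 and 29.2 CPM in sham microglia and 77.3, 51.8, 44.2, 40.7 and 52.4 CPM in FPI microglia, with a log2 fold change of 0.75 (adjusted p = 0.044, SE 0.19). In all 3 the FPI libraries were above every sham library, although for Gramd1b sham library 4 almost reached the lowest FPI library, and for Apoe libraries 4 and 5 of each group were lower than 1 and 2. Npc2, a lysosomal sterol carrier, met the adjusted p but not the minimum fold change (0.53, adjusted p = 0.0428, SE 0.13). Beside these, the astrocyte markers summed to 594, 617, 377, 309 and 293 CPM in FPI microglia, with all 8 above 0 on the log2 scale and 1, Gfap, past the test at 2.78 (SE 0.55, adjusted p = 0.00772). Of the 7 markers of oligodendrocyte precursors 2 had enough reads to be tested in microglia, and they went opposite ways: Cspg4 passed as higher (2.29, adjusted p = 0.0349) and Pdgfra did not pass (-1.66, adjusted p = 0.379). Oligodendrocyte markers summed to 176, 187, 138, 169 and 195 CPM in sham and 201, 303, 209, 247 and 207 CPM in FPI microglia. The part of these markers' cells in the values for microglia was not tested.

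In astrocytes after FPI, no cholesterol gene passed the test, and all 18 synthesis genes had log2 fold changes below 0 with libraries that overlapped with sham. With edgeR 0 of the 30 passed, with DESeq2 also 0, and 6 were at an unadjusted p below 0.05, all below 0, against 0.75% of all genes at such a p below 0. Over all 13741 genes tested in astrocytes, 1 passed (0.00728%), against 39 of 22690 with DESeq2 and 53 of 15077 when all 20 libraries were fitted together, no cholesterol gene described here among them. The log2 fold change was below 0 in 26 of the 30 (86.7%), against 50.8% of all genes. The synthesis genes had a median of -0.44 and a range of -0.87 to -0.03, against a median of -0.01 for all genes. None of the 18 had every FPI library below every sham library, as 0.262% of all genes had, and each adjusted p was 0.999.

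Hsd17b7, the ketosteroid reductase, stood at 39.3, 22.9, 42.0, 19.6 and 17.3 CPM in sham astrocytes and 13.9, 18.8, 15.2, 14.8 and 13.3 CPM in FPI astrocytes. Sham libraries 1 and 3 were far above all FPI libraries, while the lowest sham library lay under FPI library 2 (log2 fold change -0.87, SE 0.26, unadjusted p = 0.00612, edgeR). Mvk, mevalonate kinase, stood at 33.3, 33.1, 41.7, 24.1 and 28.0 CPM in sham astrocytes and 18.3, 24.3, 25.8, 22.4 and 21.6 CPM in FPI astrocytes. Sham library 4 was within the FPI range and the other sham libraries were above it (log2 fold change -0.49, SE 0.17, unadjusted p = 0.0155, edgeR). Idi1 stood at 41.7, 60.2, 62.5, 36.3 and 34.5 CPM in sham astrocytes and 33.0, 40.1, 30.4, 22.3 and 29.4 CPM in FPI astrocytes. Only FPI library 2 reached into the sham range, above sham libraries 4 and 5 (log2 fold change -0.57, SE 0.22, unadjusted p = 0.0216, edgeR). Sqle stood at 135, 116, 145, 73.1 and 80.2 CPM in sham astrocytes and 105, 64.98, 70.9, 49.4 and 49.7 CPM in FPI astrocytes. Here FPI library 1 was above sham libraries 4 and 5, and the other FPI libraries were below every sham library (log2 fold change -0.66, SE 0.26, unadjusted p = 0.0264, edgeR).

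Dhcr7, the last reductase of the pathway, stood at 126, 94.7, 91.5, 64.0 and 47.5 CPM in sham astrocytes and 78.6, 52.7, 49.5, 44.9 and 38.7 CPM in FPI astrocytes. Sham libraries 1 to 3 were above every FPI library and sham libraries 4 and 5 were among them (log2 fold change -0.65, SE 0.27, unadjusted p = 0.0323, edgeR). Msmo1 stood at 513, 445, 627, 192 and 252 CPM in sham astrocytes and 333, 278, 259, 171 and 175 CPM in FPI astrocytes, with the same pattern (log2 fold change -0.71, SE 0.33, unadjusted p = 0.0497, edgeR). The remaining synthesis genes had log2 fold changes of Fdft1 (-0.54), Mvd (-0.52), Cyp51 (-0.48), Tm7sf2 (-0.41), Hmgcs1 (-0.40), Lss (-0.34), Fdps (-0.33), Sc5d (-0.32), Nsdhl (-0.30), Ebp (-0.23), Pmvk (-0.17) and Acat2 (-0.03). The number of the 18 at an unadjusted p below 0.05 depended on single libraries: it was 12 without FPI astrocyte library 1, 2 without FPI library 4, and 3 without FPI library 2, sham library 2 or sham library 3.

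**Figure D4:**
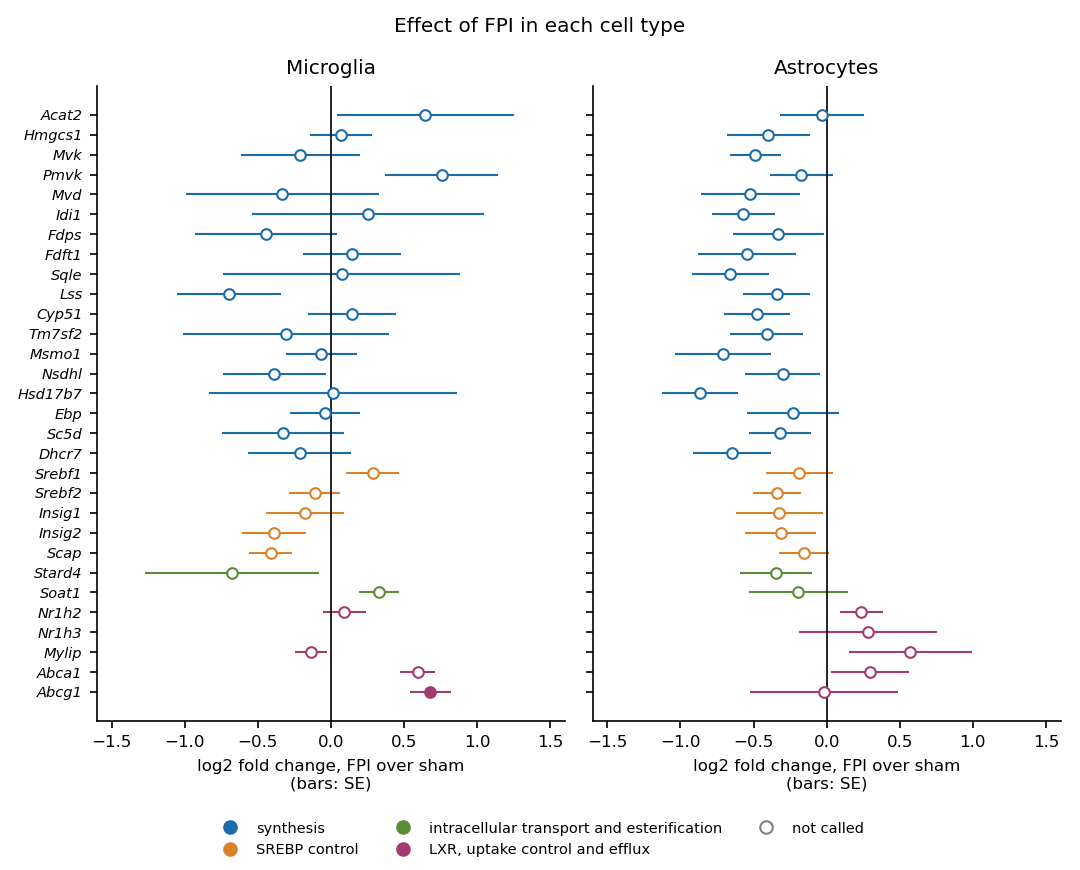
Points give the log2 fold change of each gene, FPI over sham, in microglia (left) and astrocytes (right, 5 libraries per group), bars its standard error, colours the role, and open points genes that did not pass the test. Abcg1 at 0.68 in microglia is the only filled point, and all 18 synthesis genes in astrocytes lie at or below -0.03.

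Libraries varied widely within each astrocyte group. The 18 synthesis genes summed to 2081, 1793, 2169.7, 1116 and 1154 CPM in sham astrocyte libraries 1 to 5 and 1658, 1242, 1138, 854 and 782 CPM in FPI astrocyte libraries 1 to 5. In both groups libraries 4 and 5 were the lowest, and FPI library 1 lay above sham libraries 4 and 5. Astrocyte markers summed to 32440.3, 26362, 25539, 10462 and 16318 CPM in sham and 32539.6, 21028, 20518, 11977 and 16061 CPM in FPI astrocytes, and were also lowest in libraries 4 and 5 of each group. Their most abundant gene was Slc1a2, 2 of the 8 had a log2 fold change above 0, and none passed, with Gfap nearest at 1.98 (SE 0.34, adjusted p = 0.151). Within replicates 1 to 3 the mean synthesis sum was 2014 CPM in sham and 1346 CPM in FPI astrocytes, and 17 of 18 genes had a log2 ratio of means below 0 (median -0.43). Within replicates 4 and 5 it was 1135 and 818 CPM, with 16 of 18 below 0 (median -0.41). With FPI astrocyte libraries 2 and 5, of the same animal number, summed into 1, the median log2 fold change was -0.45, all 18 were below 0 and none passed.

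Oligodendrocyte markers (8 genes, such as Mbp and Mog) had reads in every astrocyte library and summed to 8068, 3429, 1736, 18546 and 8244 CPM in sham and 9456, 10391, 6420.1, 11649 and 3347 CPM in FPI astrocytes. The highest were sham library 4, FPI library 4 and FPI library 2, and the groups overlapped. Markers of oligodendrocyte precursors (7 genes, led per kilobase of exons by Olig1) summed to 399, 363, 289, 680.0 and 752 CPM in sham and 329, 524, 465, 837 and 1388 CPM in FPI astrocytes, with 5 of the 6 tested above 0 on the log2 scale and none past the test. Microglia markers summed to 60.8, 45.5, 34.7, 33.2 and 31.6 CPM in sham and 119, 110.3, 42.5, 45.7 and 141 CPM in FPI astrocytes, with 6 of 6 tested above 0 and none past the test. At an unadjusted p below 0.05 (edgeR) stood 3 of the precursor markers and 4 of the microglia markers, all above 0, and 0 of the oligodendrocyte markers. The part of these cells in the values for FPI against sham was not tested.

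**Figure D5:**
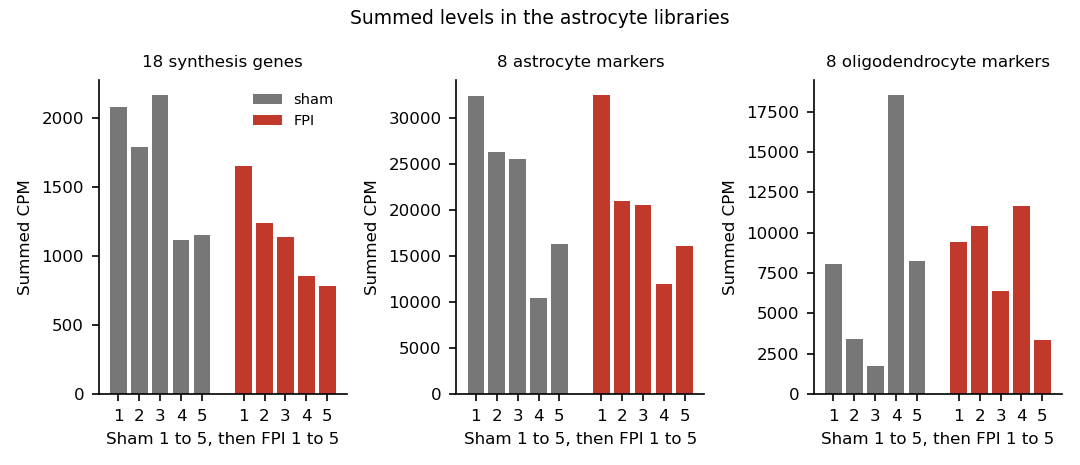
Bars give the summed CPM of the 18 synthesis genes, 8 astrocyte markers and 8 oligodendrocyte markers in sham (grey) and FPI (red) astrocyte libraries 1 to 5, with each axis from 0. Sham library 4 has 1116 CPM of synthesis genes, 10462 CPM of astrocyte markers and 18546 CPM of oligodendrocyte markers.

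The 5 SREBP control genes were all below 0 in FPI astrocytes without passing, with log2 fold changes of Srebf1 (-0.19), Srebf2 (-0.34), Insig1 (-0.32), Insig2 (-0.32) and Scap (-0.16), and Srebf2 had the smallest unadjusted p of them (0.06, edgeR). Stard4 had -0.35 (SE 0.25) and Soat1 -0.19 (SE 0.34). The LXR and efflux genes were above 0 in 4 of 5. Mylip stood at 13.8, 29.7, 20.1, 32.1 and 36.8 CPM in sham and 8.86, 34.2, 38.5, 42.2 and 70.6 CPM in FPI astrocytes, where FPI library 5 was the highest and FPI library 1 the lowest of all 10 (log2 fold change 0.57, SE 0.42). Abca1 stood at 661, 459, 560.1, 329 and 353 CPM in sham and 871, 590.2, 479.9, 457 and 436 CPM in FPI astrocytes, overlapping (0.30, SE 0.26), and Nr1h2 and Nr1h3 had 0.24 and 0.28. Abcg1 stood at 50.5, 31.6, 19.9, 177 and 61.3 CPM in sham and 61.2, 86.0, 42.1, 102 and 38.5 CPM in FPI astrocytes, with a log2 fold change of -0.02 (SE 0.51). Its 3 highest libraries, sham 4, FPI 4 and FPI 2, were those with the highest oligodendrocyte marker sums, and without sham library 4 its log2 fold change was 0.72, which did not pass. The direction also turned without FPI library 3 (0.11) or FPI library 5 (0.10). In fits added after the data were seen, its log2 fold change was 0.94 within replicates 1 to 3 (SE 0.36, adjusted p = 0.676), -0.76 within replicates 4 and 5 (SE 0.57) and 0.27 with a term for replicates 4 and 5 (SE 0.44), and it passed in none. Of the wider list, 33 of 34 genes were tested in astrocytes and 0 passed (edgeR; 1 at an unadjusted p below 0.05). The smallest p belonged to Gramd1c, a sterol transfer protein, at 0.94 (SE 0.39) from 1.73 to 2.53 CPM in sham and 2.00 to 6.85 CPM in FPI astrocytes, then Erlin1, a membrane protein that binds SREBP complexes, at 0.34 (SE 0.24), and Npc2 at -0.21 (SE 0.15).

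Whether FPI acted differently in the cell types was tested by the difference of its effects, microglia minus astrocytes, in 1 fit of all 20 libraries. No member passed at an adjusted p below 0.1 (edgeR; DESeq2 also 0), against 0.199% of 15077 genes, and 1 was at an unadjusted p below 0.05, against 7.02%. This was Pmvk, with a difference of 0.93 (adjusted p = 0.653, SE 0.41). Among the synthesis genes the difference was above 0 in 15 of 18, with a median of 0.46, against 0.02 for all genes. Abcg1 had a difference of 0.70 (adjusted p = 0.909, SE 0.56) and Abca1 of 0.31 (adjusted p = 0.946, SE 0.29), so that the effect of FPI on either was not shown to differ between cell types. Without sham astrocyte library 4 the difference for Abcg1 was -0.04. It was -0.44 (SE 0.38) without the astrocyte libraries of the 3 animals with both cell types, and did not pass. Of the wider list none passed either (edgeR), 7 were at an unadjusted p below 0.05, and Apoe came nearest with 2.65 (adjusted p = 0.166, SE 0.65). In FPI as in sham, the summed synthesis genes of microglia were far below those of astrocytes, at 13.2% of the mean sum in FPI astrocytes and 9.43% in sham.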

How the data were processed

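Single-animal libraries of sorted mouse microglia and astrocytes (4 groups of 5) were compared by their labels. According to the submitters' processing notes, the authors demultiplexed reads with bcl2fastq, aligned them with HISAT2 2.1.0 to mm10 (GRCm38.p6) and deposited the whole-number count per gene from featureCounts; the strand setting of counting was not given. Members were matched by symbol, and Msmo1 by its identifier, as the table lists it under an older symbol. Not every gene of the pathway is reported here. The members and lists were chosen with earlier results of these data known.

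Counts were tested with edgeR 4.0.16 (filterByExpr, TMM normalization, quasi-likelihood test) in R 4.3.3 with limma 3.58.1, within each cell type for FPI against sham, and over all 20 libraries to compare cell types and to subtract the astrocyte effect of FPI from the microglial one. A gene passed at a Benjamini-Hochberg adjusted p below 0.1 and an absolute log2 fold change above 0.6, with no minimum for that subtraction; a log2 fold change of 1 is a doubling. Depth per group is given with the results, and the standard errors beside each value give the precision. CPM used the TMM factors of all 20 libraries, and levels were compared between genes only after division by exon length (GENCODE M21).

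Each member was named; those that passed in an injury comparison, the 5 with the smallest p in each cell type, and the 5 that passed with the largest log2 fold change in each direction between the sham cell types were given in every library. Of 34 other genes of cholesterol handling, those that passed after injury, the 3 with the smallest p per cell type and the 3 with the largest difference in each direction were named. Other members given by library or singled out (such as Scap, Soat1 and Nr1h3 where outside this rule) were chosen after their values were seen. Alternatives were DESeq2 1.42.0, RLE factors, other count filters, robust moderation, other thresholds, a replicate block, a term for the style of animal names, all 20 libraries in 1 fit, summing the libraries of the same animal number, leaving out the astrocyte libraries of animals with both cell types, and leaving out each library. Fits within the name series, within astrocyte replicates 1 to 3 or 4 and 5, and with a term for them were added after the data were seen. Scripts were tested on simulated data. Tables and figures used Python 3.11.15, numpy 2.4.6, pandas 2.3.3 and matplotlib 3.10.9.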

Additional observations from a re-analysis of the deposited data

Results flagged for a closer look

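Of 215 groups of 5 libraries examined with Dixon's ratio, 9 held a library far from the other 4, among them 3 of the 120 groups of members; by chance about 1 in 20 groups would. Acat2 in FPI astrocyte library 1 stood at 25.9687 CPM, against 13.4 to 16.3 CPM in the others. Nr1h2 in sham astrocyte library 3 stood at 33.2232 CPM, against 45.3 to 49.2 CPM. Abcg1 in sham astrocyte library 4 stood at 177.426 CPM, against 19.9 to 61.3 CPM.

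Among the other genes of cholesterol handling, Vldlr in sham microglia library 2 stood at 1.61042 CPM, against 0 to 0.341 CPM, and Gramd1c in the same library at 0.219603 CPM, against 0 in the others. Npc2 in FPI microglia library 3 stood at 165.274 CPM, against 237 to 249 CPM. Gramd1b in FPI astrocyte library 5 stood at 75.7277 CPM, against 144 to 161 CPM, and Cyp7b1 in FPI astrocyte library 1 at 49.8764 CPM, against 16.4 to 25.3 CPM. The summed SREBP control genes in sham microglia library 1 stood at 226.423 CPM, against 169.6 to 179.9 CPM.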

How the results depend on the processing

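No result turned to the other direction past the threshold. Between the sham cell types 20 to 28 members passed under every alternative, the lowest where only 22 had at least 10 counts in every library. In astrocytes and for the difference in effect, 0 members passed under every alternative. The median of the synthesis genes stayed between -0.63 and -0.36 in astrocytes and between -0.20 and 0.01 in microglia when single libraries were left out. Nr1h3 was too low in microglia for the main test; it was tested only under alternatives that admit lower counts, with DESeq2, with every gene of at least 1 count and with all 20 libraries fitted together, and did not pass there.

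For FPI microglia, the 1 member that passed became 2 with at least 10 counts in every library, 2 with no minimum fold change, 2 within the numeric name series, 0 at stricter thresholds (0.05 for adjusted p, 1 for log2 fold change), 0 with all 20 libraries fitted together, and 0 to 2 when single libraries were left out. All genes that passed, 285, became 108 at the stricter thresholds, 121 with all 20 libraries, 99 within the J name series, and 177 to 423 when single libraries were left out.

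For FPI astrocytes, the 1 gene that passed became 39 with DESeq2, 9 with every gene of at least 1 count, 0 with robust moderation, 0 at the stricter thresholds, 0 with libraries 2 and 5 summed, 53 with all 20 libraries, 6 with a term for replicates 4 and 5, 3 within replicates 1 to 3, 0 within replicates 4 and 5, and 0 to 3 when single libraries were left out. For the difference in effect, 30 genes became 190 with DESeq2, 1 with at least 10 counts in every library, 69 without the astrocyte libraries of the 3 animals with both cell types, and 21 to 48 when single libraries were left out. The cause was not tested.

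With the replicate block, 1 member passed in microglia and 0 in astrocytes, and of all genes 255 and 11; Abcg1 in astrocytes stood at 0.29 and did not pass. The synthesis genes had a median of -0.11 in microglia and -0.45 in astrocytes, where 10 of 18 were at an unadjusted p below 0.05 (edgeR). The numbers were not taken as pairing: libraries of the same number correlated at 0.0924, 0.0627, -0.066, 0.0483 and 0.0527 in microglia and at 0.45, -0.00927, 0.245, 0.452 and 0.348 in astrocytes, and not every library correlated best with its own number.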
